A study of Mus musculus with 9 samples.

Results

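Abnormal non-malignant mouse samples were compared with controls across all genes, in a study of NOTCH1 and T cell acute lymphoblastic leukemia. The 6 arrays were chosen by their titles: 3 labelled control and 3 labelled abnormal non-malignant, out of 9 in the series. The other 3, from NIC tumors, entered the estimate of the spread, the filter and the choice of probe set. They did not enter the means compared. All samples were RNA of sorted mouse cells, hybridized 1 sample per Affymetrix array. The labels give no genotype, strain, treatment, age or driver of NOTCH1 for either group, and neither the sorted population nor what NIC stands for. They do not say that the samples of a group came from separate animals, so each p-value measures only the spread between these samples, which may be technical. Of 18193 genes with a probe set of 1 symbol, 13296 exceeded the 40th percentile of all probe sets on 3 or more of the 9 arrays and were tested. Values are log2 values as deposited.

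NOTCH1 is a surface receptor that is cut when a neighbouring cell presents a ligand of the Delta or Jagged family. The freed intracellular domain enters the nucleus, binds the DNA-bound protein RBPJ and switches on target genes such as the Hes and Hey repressors. In the thymus this signal commits progenitors to the T lineage and supports them up to the pre-T cell receptor checkpoint, and mutations that keep it on are frequent in T cell leukemia.

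The array medians of all probe sets lay between 5.67 and 5.77. T cell markers were bright and overlapped between the groups: their summed linear value, taken back to log2, was 15.18 to 15.37 on the controls and 15.08 to 15.29 on the non-malignant arrays. The labels name no cell type, and these markers were plain in both groups. Non-malignant arrays 2 and 3 stood closer to each other than any other pair, the gene by gene differences having an SD of 0.156, against 0.38 and 0.368 for array 1 beside them and 0.303 to 0.412 among the controls. They may not be separate samples, and the labels do not settle it. Results are given also with these arrays averaged and counted as 1, and for array 1 by itself. Control 2 differed from the other 5 arrays in Xist (10.27, against 12.44 to 13.30), the RNA of the inactive X chromosome. The labels say nothing of sex, and list counts that moved by over 1.5 times without control 2 are given with their list or near the end.

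A gene was called when its limma adjusted p, with Benjamini-Hochberg adjustment over all genes tested, was under 0.05. In the non-malignant samples 382 genes rose (2.87% of those tested) and 87 fell (0.654%), 469 in all (3.53%). With non-malignant arrays 2 and 3 averaged, 178 rose and 28 fell, 206 in all (1.56%), and each of these was among the 469. The unadjusted limma p was below 0.05 in 1766 of the 13296 genes. The median log2 fold change over all genes was 0.00709, and its 5th and 95th percentiles were −0.516 and 0.788. The 3 arrays of a group lay wholly apart in 3471 genes (26.1%), 2254 higher (17.0%) and 1217 lower (9.15%), a far commoner event than a call. All 469 called genes were among them.

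The rises were more numerous and larger than the falls. Of the 382 rises 301 were at least 2-fold, 126 at least 4-fold, 60 at least 8-fold and 16 at least 16-fold. Of the 87 falls 67 were at least 2-fold, 15 at least 4-fold and 3 at least 8-fold. The median log2 fold change was 1.53 among the rises and −1.38 among the falls. In 38 of the rises all 3 controls, and in 10 of the falls all 3 non-malignant arrays, fell below that 40th percentile, a range in which signal cannot be separated from background here. Such genes passed the filter through other arrays, and their size is a lower bound, computed with dim arrays set to that percentile.

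Desmoplakin, Dsp, the protein that anchors desmosomes to the cytoskeleton, had the largest rise. It read 3.51, 3.7 and 3.48 on controls 1 to 3 and 12, 12.35 and 12.32 on non-malignant arrays 1 to 3, a rise of at least 7.02 on the log2 scale because all controls were dim (adjusted p = 9.63e-06). Tm4sf5, a tetraspanin-like membrane protein, read 5.1, 5.34 and 5.32 against 11.74, 11.89 and 12.01. Every non-malignant array stood more than 6 log2 units above every control in Tm4sf5, and array 1 lay close to the others. Epas1, which encodes the hypoxia-responsive factor HIF-2alpha, read 4.05, 4.79 and 3.98 against 10.1, 10.76 and 10.7 (at least 5.32). Neurolysin, Nln, a peptidase, read 6.11, 5.42 and 5.53 against 10.61, 11.01 and 10.88. Mycn, a member of the Myc family, read 8.2, 9.32 and 7.9 against 13.27, 13.7 and 13.73. Its second probe set read 5.22, 5.44 and 5.86 against 4.75, 4.89 and 4.66 (−0.74, adjusted p = 0.17). All 3 non-malignant arrays were dim there, below the 40th percentile. The rise of Mycn rests on 1 of 2 probe sets, the other lying near background.

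The 25 largest rises ran from 3.81 to 8.66 and held genes of very different kinds. Among the enzymes and transporters were Ace, the angiotensin-converting enzyme (4.04 ± 0.57, log2 fold change ± SE), Abcb1a, the P-glycoprotein drug pump (at least 3.21), Idi2, an isopentenyl isomerase (at least 3.31), and Mgst1, a membrane glutathione transferase (at least 2.15). The metalloprotease Adam19 read 5.9, 6.47 and 6.3 against 10.27, 11.3 and 11.33, and Sidt1, a transporter of double-stranded RNA, read 6.54, 6.97 and 6.4 against 10.43, 11.31 and 11.35. The tetraspanin Cd82 read 8.7, 8.72 and 8.58 against 12, 12.73 and 12.79, but its other probe set did not differ (0.04, adjusted p = 0.98). Rhob, a small GTPase of the cytoskeleton, rose by 3.94 and Spsb4, a ubiquitin ligase adaptor, by 3.98. Wdr25 rose by 4.1 with little spread in either group (6.07, 6.09 and 6.07 against 10.21, 10.1 and 10.21). The cytokine Il10 (at least 3.24), the secreted proteoglycan Esm1 (at least 2.92) and the mitochondrial enzyme Aldh1b1 (3.91) were less secure. Their calls were lost without any 1 control or without non-malignant 2 or 3, and that of Aldh1b1 also without non-malignant 1, while the measured values stayed between 3.54 and 4.3, 3.52 and 4.54, and 3.72 and 4.07. Idi2 and Mgst1 passed the filter through the non-malignant arrays, so the fits without 1 of these did not test them, and 6 of the 9 fits that leave out 1 array did.

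The 25 largest falls ran from 1.66 to 4.06 in size. Bex1, a small signalling adaptor, read 9.71, 6.9 and 9.8 on the controls and 4.76, 4.76 and 4.71 on the non-malignant arrays (a fall of at least 3.64, adjusted p = 0.00588). Control 2 lay far below the other controls in Bex1 and still above every non-malignant array. Bex1 passed the filter through the controls, and the 3 fits without a control did not test it. Abca1, the membrane pump that exports cholesterol, read 9.34, 9.09 and 8.12 against 6.26, 5.59 and 5.7. Dhrs3, a reductase that returns retinal to retinol, read 8.93, 10.42 and 9.92 against 7.54, 6.66 and 6.73. Dgke, a diacylglycerol kinase, read 9.78, 10.25 and 9.79 against 8.17, 7.46 and 7.46. The opposite-strand transcript Dgkeos fell with it, from 8.98, 10.98 and 9.42 to 6.9, 6.25 and 6. The strand that these probe sets read is not given in the sources used here, so the 2 falls may not be separate.

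Several of the falls were in signalling and membrane genes. Spry1, an inhibitor of growth factor signalling, read 8.29, 8.67 and 8.84 against 6.53, 6.9 and 7.06. Bambi, a decoy receptor for TGF-beta family ligands, read 6.9, 7.35 and 7.26 against 5.62, 5.54 and 5.31. Both differed by several times the spread within either group, and both calls held without any 1 array. The potassium channel Kcnh2 fell by 1.74, the GABA-B receptor subunit Gabbr1 by 1.68 and the nicotinic receptor subunit Chrna9 by 2.19. Tdrp fell from 8.06, 7.88 and 7.7 to 5.64, 5.2 and 5.18, and it was the only fall also called from array 1 by itself. The calls of Map4k5 (a fall of at least 2.25, measured at −2.93 to −2.37 with 1 array left out) and Dapk1, a kinase of cell death (−2.4 to −2.12), were lost without any 1 control or non-malignant array. That of Dgkeos (−3.82 to −2.81) was lost without non-malignant 2 or 3. The same held for the clotting factor gene F13a1 (−2.78 to −2.01), the polarity gene Prickle1 (−2.78 to −2.4), Mns1 (−1.97 to −1.63), Ypel2 (−2.11 to −1.76) and Bcat2 (−2.14 to −1.57), whose calls were also lost without some single controls.

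**Figure D1:**
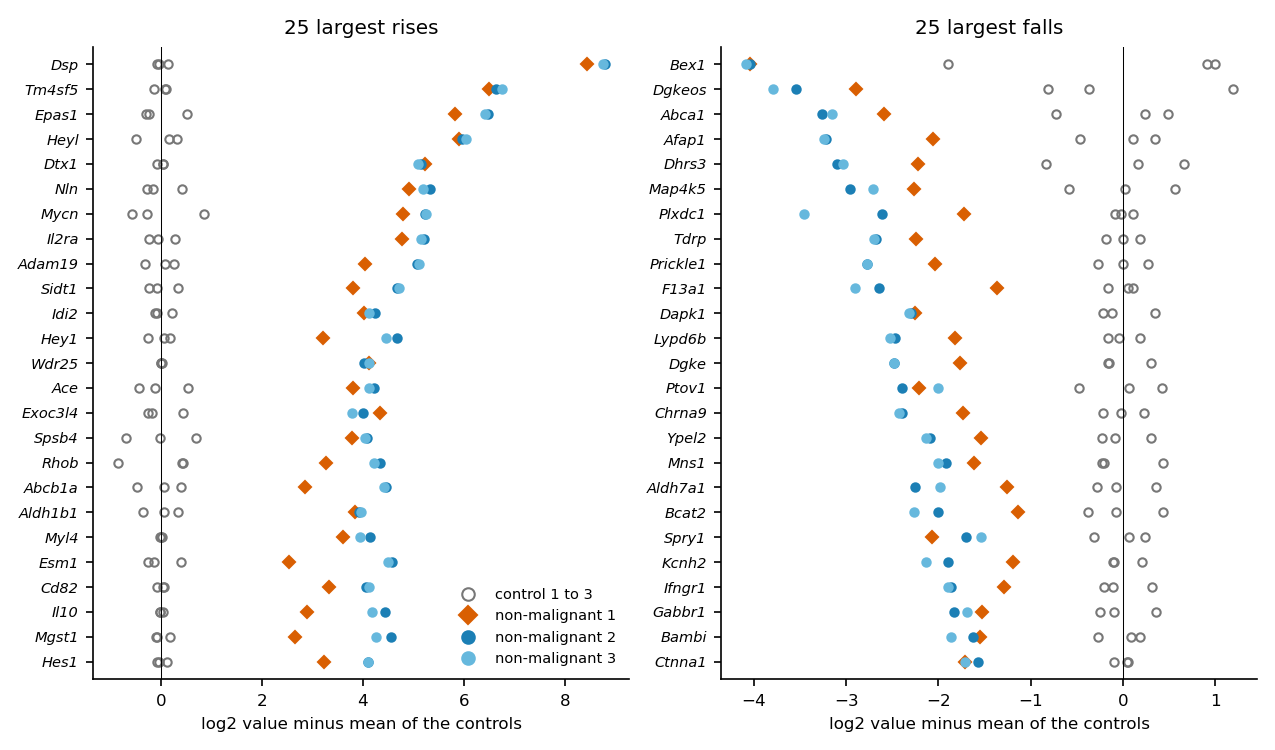
The 25 largest rises (left) and falls (right) among called genes whose groups do not overlap, each array shown as its log2 value minus the mean of the 3 controls. Open circles are controls 1 to 3, the diamond is non-malignant 1 and filled circles are non-malignant 2 and 3. The gap between the groups in every row follows from this choice of genes. Array 1 is often the non-malignant array nearest to the controls, as in Esm1, Hey1 and F13a1.

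Many Notch target genes rose. Of 24 listed, 23 had a probe set of their own and 22 were tested: 9 rose, 1 fell and 12 were not called, with a median log2 fold change of 1.04, against 0.00709 over all genes. The rises comprised the Hes and Hey repressors (Hes1, Hes5, Hey1, Heyl), 2 regulators of the pathway itself (Dtx1, Nrarp), the surface proteins Il2ra and Cd44, and the lymphocyte GTPase Gimap5. The count was 6 rises and 0 falls with non-malignant arrays 2 and 3 averaged, and 7 rises and 0 falls without control 2 or without non-malignant 1.

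Among the repressors, Hes1 read 6.35, 6.31 and 6.5 on controls 1 to 3 and 9.62, 10.49 and 10.49 on non-malignant arrays 1 to 3 (3.81 ± 0.34 SE, adjusted p = 0.000293). Hey1 read 6.14, 6.57 and 6.45 against 9.59, 11.07 and 10.85. Heyl read 5.06, 5.22 and 4.41 against 10.81, 10.87 and 10.95, with 2 controls dim (at least 5.68). Hes1 and Hey1 were lower on array 1 than on arrays 2 and 3, whereas Heyl was alike on all 3. Hes5 read 5.41, 5.75 and 5.53 against 6.13, 7.94 and 7.78, so array 1 stood nearer to the controls than to arrays 2 and 3. Its call (1.72, adjusted p = 0.0455) was lost in 7 of the 9 fits that leave out 1 array, all but those without non-malignant 1 or tumor 1, and its value ran from 1.39 to 2.29. Hes6 and Hes7 stood at −0.17 and −0.16 and did not pass.

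Dtx1, a ubiquitin ligase that modulates Notch, had little spread in either group, with 8.08, 7.96 and 8.07 against 13.28, 13.2 and 13.14 (adjusted p = 1.26e-06). Its other probe set showed no such rise (0.07, adjusted p = 0.96). Nrarp, a feedback inhibitor that destabilizes the Notch complex, read 6.96, 7.22 and 7.11 against 9.46, 10.11 and 10.02. Il2ra, the alpha chain of the IL-2 receptor and a mark of early thymocytes, read 5.34, 5 and 4.82 against 9.83, 10.28 and 10.21 (at least 4.85, 2 controls dim). Cd44, an adhesion receptor, read 7.81, 5.83 and 7.62 against 10.13, 10.31 and 10.1. Control 2 was the low array there, and the value fell to 2.46 without it. The call of Cd44 (2.46 to 3.46) was lost without control 2, control 3 or any single non-malignant array. That of Gimap5 (0.89 to 1.16) was lost without control 1, control 3 or any single non-malignant array. Igf1r, a growth factor receptor whose gene Notch can activate in T cell leukemia, was the member that fell. It read 8.3, 8.61 and 7.57 against 6.91, 6.63 and 6.94, and its call (−1.62 to −1.11) was lost without control 1, control 2 or any single non-malignant array. Its 3 other probe sets stood at −0.96, −0.46 and −0.03, none of them called.

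Of the receptors and ligands, 6 of 9 listed were tested and 1 rose, Notch3. It read 8.88, 8.14 and 9.09 against 11.58, 11.56 and 11.58, and a second probe set rose as much (2.86). Notch1 read 9.81, 10 and 10.34 against 12.88, 12.97 and 12.87. The groups were as far apart in Notch1 as in Notch3, but Notch1 was not called (2.86 ± 0.75 SE, adjusted p = 0.0802), its SD in the tumors that share the fit being 1.96. Notch2 (0.19), Dll1 (0.09), Dll4 (0.05) and Jag2 (−0.08) were not called. Of 31 tested processing enzymes and regulators 1 rose (3.23%, beside 3.53% called over all genes), the nuclear cofactor Snw1 (1.04, 0.9 to 1.16 with 1 array left out). It was not called without control 1 or either of non-malignant 2 and 3, or when these were averaged. Rbpj, the DNA-binding partner, differed by 0.26 (adjusted p = 0.726), and the gamma-secretase and Adam genes on the list were not called. Ptcra, the pre-T cell receptor alpha chain and a Notch target, read 8.35, 8.91 and 8.52 against 12.19, 11.75 and 11.65 and just missed (3.27, adjusted p = 0.0558). Myc (1.09, adjusted p = 0.0805), Trib2 (2.09, adjusted p = 0.225) and Il7r (0.81, adjusted p = 0.179) did not pass either. With any 1 array left out Notch1 stayed between 2.74 and 3, Ptcra between 3.11 and 3.43 and Myc between 0.96 and 1.23, and each was called in 2 of the 9 fits.

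The RBPJ motif TTCCCAC, on either strand, was searched in RefSeq promoters (GRCm38.p6), taken from 250 bases before to 50 after each start. A promoter was given for 10697 of the 13296 genes. It was present in 6.11% of these, in 7.24% of the genes that rose and in 6.94% of those that fell, nearly the same share in each. Of the 10 called Notch target genes 7 had a promoter in the table, and 1, Hes5, held the motif. The 200 bases from −250 to −51 of the Hes5 start are shown because they hold both matches (capitals, at −226 on the gene's strand and −83 on the other). They lie upstream of the gene at chr4:154960673-154960872, plus strand.
Hes5: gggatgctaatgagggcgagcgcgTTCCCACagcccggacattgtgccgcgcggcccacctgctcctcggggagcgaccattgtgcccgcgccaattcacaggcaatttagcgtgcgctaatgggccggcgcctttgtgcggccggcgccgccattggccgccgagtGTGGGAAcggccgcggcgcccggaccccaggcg

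Interferon response genes gave the largest count of any list. Interferons are cytokines that induce a broad antiviral programme through STAT factors and IRF9, and many of its genes carry an interferon-stimulated response element (ISRE) in the promoter. Of 47 listed, 45 had a probe set of their own and 42 were tested: 24 rose, 0 fell and 18 were not called, with a median log2 fold change of 1.32. In 33 of the 42 all 3 non-malignant arrays lay above all controls, and in 0 below, against 17.0% and 9.15% of all genes. With arrays 2 and 3 averaged 21 rose, and without control 2 23 rose. From array 1 by itself 1 was called, Ifih1, while the median of the list was 1.14.

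The rises spanned the programme. Among the antiviral effectors Ifit1, which binds foreign RNA caps, read 4.7, 5.42 and 4.24 against 7.77, 8.84 and 8.7 (2 controls dim). Oas1a, which makes the signal that activates RNase L, read 7.12, 7.3 and 7.07 against 8.97, 9.16 and 9.17. Rsad2 (viperin) read 6.36, 7.19 and 6.55 against 8.28, 8.74 and 8.66. In each array 1 was the lowest non-malignant array, and it lay above the highest control, as in every called rise. Among the sensors Ifih1 (MDA5), which detects double-stranded RNA, read 6.22, 6.26 and 6.14 against 8.47, 8.93 and 8.76. The sensors Ddx58 (RIG-I, 1.38), Dhx58 (1.99) and Zbp1 (2.3) rose with it. The transcription factors Irf7 (6.46, 6.61 and 6.84 against 8.67, 8.9 and 8.72) and Irf9 (6.92, 7.25 and 7.17 against 8.67, 9.93 and 9.91) rose, while Irf1 (0.83, adjusted p = 0.0556), Irf3 (0.02) and Irf5 (0.07) did not pass. The inhibitor Usp18, which removes ISG15 and dampens the receptor, read 5.26, 6.5 and 5.48 against 7.78, 8.87 and 8.92. Rtp4 rose by 3.19, Xaf1 by 2.43, Lgals3bp by 2.44, Isg20 by 2.36 and Parp14 by 2.25. Oas2 (−0.01), Eif2ak2 (0.01), Ifit2 (0.38) and Ifitm1 (0.4) were not called. With 1 array left out the calls of Ddx58 (1.25 to 1.62), Dhx58 (1.74 to 2.42) and Trim25 (0.64 to 0.86) were lost without control 1, non-malignant 2 or non-malignant 3, among others.

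The guanylate-binding and immunity-related GTPases, which interferon gamma induces strongly and which attack vacuoles of intracellular pathogens, rose as well. Of 14 listed 9 were tested: 5 rose and 0 fell, with a median of 1.69, and 5 rose with arrays 2 and 3 averaged. Without control 2 the count was 7, and it was also 7 when each array was scaled to the same median. Iigp1 read 4.57, 5.21 and 4.69 against 7.2, 8.59 and 8.52 (at least 2.9, all controls dim). Gbp3 read 5.75, 5.09 and 5.6 against 7.08, 8.51 and 8.28. Irgm2 read 5.85, 6.98 and 6 against 7.83, 8.52 and 8.45, and Irgm1 7.69, 7.97 and 7.77 against 8.89, 9.72 and 9.62. Array 1 was the lowest non-malignant array in each. Ifngr1, the ligand-binding chain of the interferon gamma receptor, went the other way and fell, with 10.82, 11.35 and 10.92 on the controls and 9.74, 9.17 and 9.13 on the non-malignant arrays (−1.69 ± 0.25 SE, adjusted p = 0.00494). The other receptor chains Ifngr2 (−0.16), Ifnar1 (0.19) and Ifnar2 (0.36) were not called.

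Genes of MHC class I presentation, which load peptides cut by the immunoproteasome onto class I molecules, followed. Of 24 listed 18 were tested: 10 rose and 0 fell, with a median of 0.99. The count was 5 with arrays 2 and 3 averaged and 7 without control 2. The light chain B2m read 11.75, 12.22 and 11.28 against 13.22, 13.84 and 13.76. The heavy chain H2-K1 read 10.31, 10.51 and 10.3 against 11.53, 11.74 and 11.73. Both stood wholly apart between the groups, as every called gene did. Nlrc5, the activator of class I genes, rose by 1.94, the immunoproteasome subunits Psmb10 by 1.55 and Psmb9 by 0.92, and the loading factors Tapbp by 1.19 and Tapbpl by 1.69. The peptide transporter genes Tap1 (0.43) and Tap2 (−0.06) and the chaperones Calr (0.24), Canx (0.25) and Pdia3 (0.15) were not called. The calls of Nlrc5 (1.6 to 2.23), Psmb9 (0.73 to 1.06), Psme1 (0.73 to 0.89), Erap1 (1 to 1.37) and H2-T24 (1.63 to 2.31) were each lost without non-malignant 2, without non-malignant 3 and without some single controls. Probe sets of the class I heavy chains, Gbp and Oas genes can take signal from close relatives, which the table does not resolve.

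The ISRE core, 2 copies of GAAA with 2 bases of any kind between them, on either strand, was present in 2.81% of all promoters, in 10.5% of those of genes that rose (32 of 304) and in 1.39% of those of genes that fell (1 of 72). Of the 24 interferon genes that rose 17 had a promoter in the table and 7 of them held it (41.2%). Of the 33 tested interferon genes with a promoter 12 held it, so that uncalled members carried it too. It stood in 3 of 4 GTPase genes that rose and in 3 of 7 class I genes that rose. Stretches of 70 bases from 6 of these promoters are shown because each holds the core (capitals, overlapping matches run together; TTTC marks the other strand). All lie upstream of the start: Ifit1 at chr19:34640769-34640838, Gbp3 at chr3:142559974-142560043 (1 of its 2 listed starts), Irgm2 at chr11:58214877-58214946 and B2m at chr2:122147517-122147586 on the plus strand, Irgm1 at chr11:48871421-48871490 and Oas1a at chr5:120907526-120907595 on the minus strand.
Ifit1: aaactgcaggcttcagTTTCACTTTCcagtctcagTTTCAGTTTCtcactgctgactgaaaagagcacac
Gbp3: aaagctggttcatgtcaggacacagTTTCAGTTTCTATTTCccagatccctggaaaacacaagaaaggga
Irgm1: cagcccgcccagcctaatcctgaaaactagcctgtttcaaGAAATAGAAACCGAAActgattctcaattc
Oas1a: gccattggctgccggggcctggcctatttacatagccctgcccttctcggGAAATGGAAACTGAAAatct
Irgm2: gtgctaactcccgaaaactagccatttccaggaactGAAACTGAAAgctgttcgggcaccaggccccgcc
B2m: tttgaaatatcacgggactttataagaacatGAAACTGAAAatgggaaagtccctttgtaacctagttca

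Myeloid markers moved in the same direction as these lists. Their summed level was 9.61 to 9.79 on the controls and 10.56 to 10.73 on the non-malignant arrays, and 1 of 11 tested was called, Ctss (6.22, 6.33 and 5.3 against 7.62, 8.65 and 8.6). The call of Ctss (2.02 to 2.68) was lost without control 3 or without either of non-malignant 2 and 3, and 0 of the markers were called when these were averaged. With the controls and non-malignant samples fitted alone 5 of the 11 rose, beside 822 of all 13296 genes. S100a8 (6.07, 4.76 and 4.92 against 8.03, 8.02 and 8) and S100a9 (2.61, adjusted p = 0.117) stood higher without a call in the fit of all 9 arrays. In 7 of the 11 tested all 3 non-malignant arrays lay above all controls, and in 0 below, against 17.0% and 9.15% of all genes. Among the 7 were Ngp (6.33, 6.37 and 6.36 against 7.27, 7.33 and 7.43) and Ltf (6.13, 6.1 and 6.4 against 6.76, 7 and 6.92), neither called. Lyz2 (0.07), Csf1r (0.09), Cd68 (0.08) and Elane (0.05) were not called either, and Itgam was dim on all 6 arrays. Dendritic markers had 0 of 7 called by limma, and 0 had an unadjusted p below 0.05, with sums of 9.56 to 9.76 against 9.74 to 10.01. Erythroid markers had 0 of 4 called by limma, and 2 had an unadjusted p below 0.05, with sums of 8.38 to 8.51 against 9.03 to 9.22. With the controls and non-malignant samples fitted alone 2 of the 4 rose. In bulk RNA more cells of a type and more RNA per cell cannot be told apart, and the part of myeloid or erythroid RNA in the called genes was not tested.

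**Figure D2:**
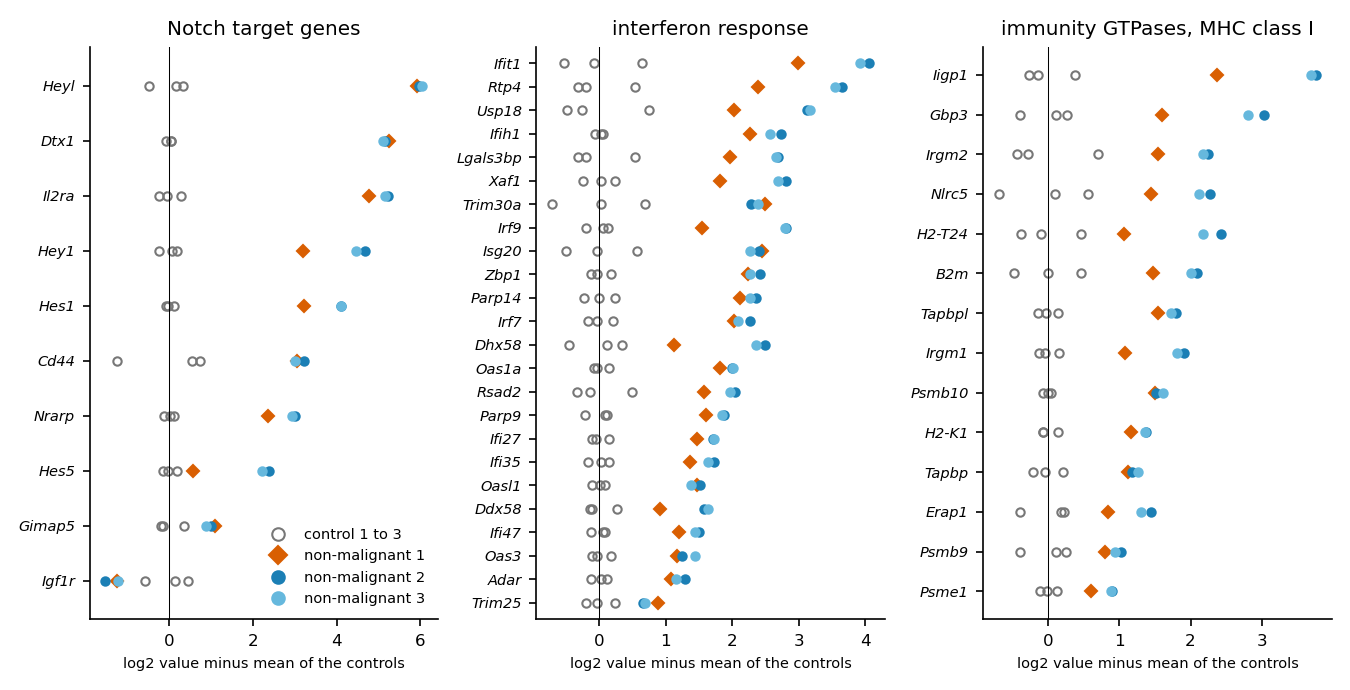
Called members of the Notch target list (left), the interferon response list (middle) and the GTPase and MHC class I lists (right), each array as its log2 value minus the mean of the 3 controls. Heyl and Dtx1 are alike on the 3 non-malignant arrays, Hes5 is near the controls on array 1 (diamond), and Igf1r is the member that fell; interferon and GTPase genes are mostly lowest on array 1 among the non-malignant arrays.

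Cytotoxic granule genes rose in part. Of 31 listed 21 were tested: 6 rose, 0 fell and 15 were not called, with a median of 0.17. The count was 4 with arrays 2 and 3 averaged or without control 2. Perforin, Prf1, which opens pores in target cells, read 5.92, 5.81 and 5.26 against 9.5, 9.48 and 9.42. Granzyme A, Gzma, a protease delivered through those pores, read 9.24, 9.2 and 9.3 against 12.15, 12.92 and 13.01. Granzyme B, Gzmb, read 5.1, 5.31 and 4.76 against 6.16, 6.07 and 6.18 (at least 0.91, 2 controls dim). A second probe set of Prf1 showed no rise (−0.06, adjusted p = 0.97). The granule gene Nkg7 rose by 1.3, the cystatin Cst7 by 1.96 and the granzyme inhibitor Serpinb6b by 2.84. The calls of Gzma (3.29 to 3.72) and Serpinb6b (2.7 to 3.06) were lost without any 1 control or without non-malignant 2 or 3, and that of Serpinb6b also without non-malignant 1. The natural killer receptors Ncr1 (0.02) and Klrk1 (−0.14) were not called, Klrd1 was dim on all 6 arrays, and Ccl5 (0.01) and Eomes (0.02) were not called. The summed natural killer and cytotoxic markers stood at 9.84 to 9.85 on the controls and 12.48 to 13.19 on the non-malignant arrays, a difference carried by the granule genes.

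Genes of mature T cells and homing went both ways. Of 26 tested 7 rose and 1 fell, with a median of −0.01, and 4 rose and 0 fell with arrays 2 and 3 averaged. Klf2, the factor that licenses exit from the thymus, read 8.19, 7.13 and 8.35 against 9.99, 10.97 and 10.99. S1pr1, the exit receptor that Klf2 controls, read 5.55, 6.12 and 6.4 against 7.51, 8.36 and 8.49. Both were lower on array 1 than on arrays 2 and 3 and above every control. Itgb7 (1.89) and Itgae (1.15), the chains of the integrin that binds E-cadherin, Ccr4 (2.15), a skin-homing chemokine receptor, Plac8 (3.75) and Cd44 rose too, and Cd96, an adhesion receptor, fell by 1.49. The call of Ccr4 (1.89 to 2.67) was lost without any 1 control, non-malignant 2 or non-malignant 3. The calls of S1pr1 (1.86 to 2.4) and Cd96 (−1.64 to −1.33) were lost without non-malignant 2 or 3, and that of Itgae (0.94 to 1.32) without control 3 or non-malignant 3. Ccr9, the thymic and gut chemokine receptor, read 12.02, 12.48 and 12.03 against 10.52, 9.18 and 9.16 without passing (−2.55, adjusted p = 0.152). Of the 8 GIMAP GTPases, which support lymphocyte survival, Gimap4 (2.31) and Gimap5 (0.98) rose. In 7 of the 8 the groups lay wholly apart with the non-malignant arrays higher, against 17.0% of all genes, and the median was 0.81.

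Genes of the receptor apparatus of thymocytes were called at 5.56% for T cell receptor signalling, 12.0% for coreceptors and selection and 6.25% for recombination and the pre-T cell receptor, beside 3.53% over all genes. Of 36 tested T cell receptor signalling genes 2 rose, the kinase Zap70 (0.64) and the adhesion receptor Cd2 (1.42), and 0 fell, with a median of −0.06. Of 25 coreceptor and selection genes 3 rose: Cd53 (2.17), Runx3 (2.03) and Slamf6 (1.93), with a median of −0.36. In this list 2 genes also fell when the arrays were scaled to the same median or quantile normalized and 5 when the controls and non-malignant samples were fitted alone, and with arrays 2 and 3 averaged 1 rose and 0 fell. Runx3, a factor of the CD8 lineage, read 5.72, 5.96 and 5.9 against 7.69, 8 and 7.99, but a second probe set did not differ (−0.02, adjusted p = 0.99). Of 16 recombination and pre-T cell receptor genes 1 rose, the DNA repair factor Xrcc6 (1.04). Calls that were lost without 1 array were those of Zap70 (0.57 to 0.7, any control or non-malignant array), Cd53 (1.7 to 2.61, control 1, control 3, non-malignant 2, non-malignant 3 or tumor 2), Slamf6 (1.62 to 2.31, control 1, control 3, non-malignant 2 or non-malignant 3) and Xrcc6 (0.93 to 1.2, control 1, control 3 or any single non-malignant array).

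Markers of CD4+CD8+ thymocytes had 0 of 7 called by limma, and 0 had an unadjusted p below 0.05, although their summed level was 15.28 to 15.77 on the controls and 14.79 to 14.93 on the non-malignant arrays. In 4 of the 7 all non-malignant arrays lay below all controls, and in 0 above, against 9.15% and 17.0% of all genes. With the controls and non-malignant samples fitted alone 2 of the 7 fell, beside 297 falls over all genes. Cd4 read 12.01, 12.04 and 11.71 against 12.1, 11.12 and 11.24, and Cd8a 13.17, 13.11 and 12.65 against 11.87, 13.04 and 12.94. Array 1 was thus the highest non-malignant array in Cd4 and the lowest in Cd8a. Rag1, a recombinase subunit, read 13.22, 13.58 and 12.89 against 12.59, 12.51 and 12.51. Dntt, with the largest difference of the 7, read 12.94, 13.57 and 13.15 against 12.18, 11.39 and 11.35. Early progenitor markers summed to 8.21 to 8.82 against 11.16 to 11.6, with Il2ra, Cd44 and Lyl1 called, while Kit (−0.01) and Hhex (0.14) were not called. Mpzl2 read 5.35, 5.55 and 5.42 against 6.31, 8.74 and 8.41 without a call (adjusted p = 0.0799). The longer list of early thymocyte progenitor genes had 4 of 21 called, those 3 and Mycn, with a median of 0.03. B cell markers (8.96 to 9.44 against 8.58 to 9.07), gamma delta T markers (7.8 to 7.92 against 7.79 to 7.89), regulatory T markers (10.01 to 10.73 against 10.39 to 10.82) and stromal markers (9.72 to 9.99 against 9.78 to 9.93) overlapped between the groups, and 0 members of these 4 lists were called by limma, and 1, Cd79b (−1.49), had an unadjusted p below 0.05. Only 3 of the 6 listed gamma delta T markers had a probe set of their own (Sox13, Zbtb16 and Blk), and none is a receptor gene. The receptor gamma chain gene Trgv4, on none of the lists and named after its values were seen, rose. It read 5.88, 6.1 and 5.61 against 8.64, 9.1 and 8.87, and further probe sets stood at 3.97 (limma adjusted p = 0.036) and 1.45 (adjusted p = 0.35).

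**Figure D3:**
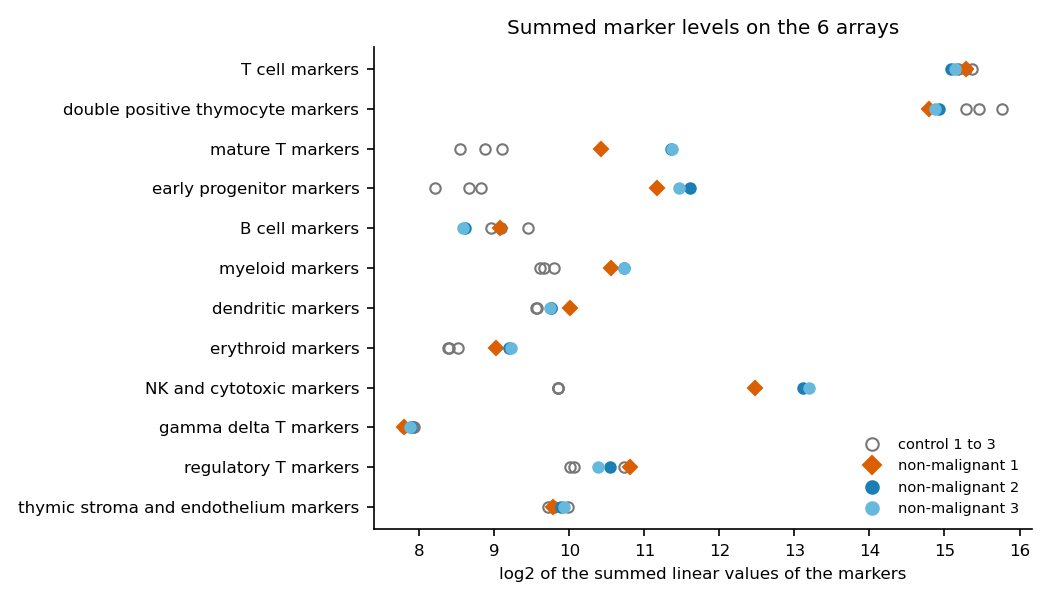
Summed level of 12 marker lists on each array, as log2 of the sum of linear values. T cell markers overlap, double positive thymocyte markers are lower on all non-malignant arrays, and early progenitor, mature T, myeloid, erythroid and cytotoxic markers are higher, the last from 9.84 to 9.85 on the controls to 12.48 to 13.19.

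The list of T lineage transcription factors also held the hypoxia-responsive factor Epas1 and Mycn. Both were among the 25 largest rises, and the members were chosen with earlier results of these data known. Of 32 tested 5 rose (15.6%, beside 3.53% called over all genes): Runx3, Epas1, Mycn, Tox2 (7.98, 8.42 and 8.57 against 10.33, 10.22 and 10.24) and Foxo1 (1.55). The other 27, Gata3 (−0.51), Bcl11b (−0.45) and Lef1 (0.67) among them, were not called, and the median was 0.01. Of 12 E proteins, Id proteins and partners 2 rose (16.7%). Id1, an inhibitor of E protein binding, read 7.47, 6.9 and 7.15 against 10.87, 10.91 and 10.97. The gap of Id1 was several times the spread within either group, while its relatives Id2 (0.66) and Id3 (−0.71) were not called. Lyl1, a partner of E proteins, rose by 0.87, a call that was lost without any 1 control or non-malignant array (0.81 to 0.97). That of Foxo1 (1.39 to 1.73) was lost without any of these and without tumor 2. Irf4, an interferon regulatory factor of activated lymphocytes that is on none of the lists and was named after its values were seen, read 5.86, 6.5 and 6.23 against 9.58, 10.1 and 9.98.

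Of 32 cytokine receptor genes 5 rose and 1 fell (18.8% called), with a median of 0.1. With arrays 2 and 3 averaged 3 rose and 1 fell. Besides Il2ra these were Il12rb1 (1.24) and Il12rb2 (1.92), the chains of the IL-12 receptor, the decoy receptor Il1r2 (0.92), the costimulatory receptor Tnfrsf9 (1.28) and, as the fall, Ifngr1. Il12rb2 read 5.45, 5.39 and 5.4 against 7.08, 7.35 and 7.58. Of 26 genes of JAK, STAT and SOCS proteins 1 rose (3.85%, beside 3.53% called over all genes). It was Socs3, a feedback inhibitor of cytokine signalling, with 7.13, 7.58 and 6.96 against 10.01, 9.17 and 9.09. Socs3 was highest on array 1, unlike most interferon genes. The calls of Socs3 (1.9 to 3.27) and Il12rb1 (1.1 to 1.33) were lost without control 1, control 3 or any single non-malignant array, that of Il12rb1 also without control 2, and that of Il1r2 (0.84 to 0.97) without non-malignant 2 or 3.

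In the TGF-beta and BMP list 3 of 27 rose (11.1%), Id1, the receptor Bmpr2 (1.4) and the signal carrier Smad3 (1.33), with a median of −0.04. In the Wnt list 1 of 26 fell (3.85%, beside 3.53% called over all genes), the beta-catenin cofactor Bcl9 (−0.81). In the list around Igf1r, PI3K, Akt and Foxo 1 rose (Foxo1) and 1 fell (Igf1r) of 28 (7.14% called, beside 3.53% over all genes). The calls of Bmpr2 (1.2 to 1.53) and Smad3 (1.29 to 1.41) were lost without any 1 control or non-malignant array. Scaled to the same median or quantile normalized, the Wnt list had 1 rise and 0 falls in place of 0 and 1, and 2 rises and 1 fall when the tumors were left out of the fit. Without the tumors 822 rises and 297 falls were called over all genes. The call of Bcl9 (−0.97 to −0.65) was lost without any 1 control, non-malignant 2, non-malignant 3 or tumor 2.

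Junction and adhesion genes stood out by single members. Of 31 tested 4 rose and 1 fell (16.1% called, beside 3.53% over all genes), with a median of 0.11: Dsp, Tm4sf5, Cdh1 and Pkp4 rose, and alpha-catenin, Ctnna1, fell. E-cadherin, Cdh1, which joins cells to each other and to Itgae/Itgb7, read 3.13, 3.44 and 3.43 against 6.24, 6.52 and 6.68 (at least 1.28, all controls dim), and the fits without 1 non-malignant array did not test it. Pkp4, a plakophilin of cell junctions, read 7.47, 6.85 and 7.93 against 10.23, 10.68 and 10.49. Ctnna1, which ties cadherins to actin, read 8.22, 8.06 and 8.2 against 6.45, 6.59 and 6.45. Other desmosome genes, Jup (0.3), Dsg2 (0.35), Pkp1 (−0.06) and Pkp3 (0.24), were not called. The 2 further probe sets of Dsp stood at 7.72 (adjusted p = 0.0009) and 4.87 (adjusted p = 0.099). The latter read 5.39 on non-malignant 1, against 10.77 and 10.66 on arrays 2 and 3 and 3.98 to 4.17 on the controls.

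Of 26 semaphorin, plexin and ephrin genes (15.4% called, beside 3.53% over all genes) 2 rose, Nrp1 (2.03), a coreceptor of semaphorins and VEGF, and Plxnc1 (1.11). As many fell: Sema7a (−1.43), which is the ligand of Plxnc1, and Plxdc1 (−2.59). Plxdc1 read 8.81, 8.88 and 9.01 against 7.18, 6.29 and 5.44, with a wide spread among the non-malignant arrays and no overlap. The calls of Nrp1 (1.85 to 2.3), Plxnc1 (0.97 to 1.26) and Sema7a (−1.7 to −1.26) were lost without non-malignant 2, for Nrp1 and Plxnc1 also without non-malignant 3, and for Plxnc1 without control 3. Of 33 regulators of small GTPases, RGS proteins and diacylglycerol kinases (12.1% called) 2 rose, among them the Ras inhibitor Rasal1 (6.67, 6.54 and 6.62 against 8.42, 7.96 and 7.91). Dgke and Map4k5 fell.

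Ribosome biogenesis genes had 0 of 34 called by limma, and 15 had an unadjusted p below 0.05, beside 1766 of all 13296 genes. All 3 non-malignant arrays lay above all controls in 24 of the 34, against 17.0% of all genes, and the median was 0.5. In a fit of controls and non-malignant samples alone 9 of the 34 rose, beside 822 of all 13296 genes. Of 30 genes of the Myc network and its synthesis enzymes 2 rose (6.67%), Mycn and the purine enzyme Atic (0.79), with a median of 0.28. Of 24 genes of glycolysis and the pentose phosphate path 4 rose (16.7%): the glucose transporter Slc2a3 (1.89), Pgam1 (0.95), lactate dehydrogenase Ldha (0.5) and transketolase Tkt (0.73). With arrays 2 and 3 averaged 0 of them were called by limma, and without control 2 the count was 1. With 1 array left out the calls of Atic (0.71 to 0.85), Ldha (0.46 to 0.55), Slc2a3 (1.8 to 1.99), Pgam1 (0.76 to 1.08) and Tkt (0.57 to 0.86) were all lost without control 1, non-malignant 2 or non-malignant 3, among others.

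Of 27 genes of cholesterol synthesis and export (14.8% called, beside 3.53% over all genes) 3 rose, Mvd (0.95) and Idi1 (1.3) of the mevalonate path and the lipid carrier Apoe (0.79). The exporter Abca1 fell, and with arrays 2 and 3 averaged it alone was called. The related exporter Abcg1 stood at −0.73 (adjusted p = 0.626), and the regulators Srebf1 (0.05), Srebf2 (0.11) and Nr1h3 (−0.12) were not called. The calls of Mvd (0.78 to 1.07) and Apoe (0.68 to 0.93) were lost without any 1 control, non-malignant 2 or non-malignant 3, and that of Mvd also without non-malignant 1, while Idi1 (1.08 to 1.48) lost it without non-malignant 2 or 3. Of 20 HIF pathway genes Epas1 rose and Bnip3, a mitophagy receptor, fell (5.9, 6.04 and 6.14 against 4.82, 4.78 and 4.82, a fall of at least 0.86). Hif1a (0.01) and the hypoxia genes Vegfa (−0.35), Car9 (−0.06) and Egln3 (−0.33) were not called. Of 21 transporters of amino acids and iron 1 was called (4.76%, near the 3.53% over all genes). It was the glutamine carrier Slc38a2, a fall (−1.07, −1.18 to −0.95, not called without any 1 control or non-malignant array or tumor 2). Of 21 retinoid, steroid and nuclear receptor genes (9.52% called) Dhrs3 fell and the glucocorticoid-induced Fkbp5 rose (0.74, 0.69 to 0.79, not called without control 1, control 3, non-malignant 2 or non-malignant 3).

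Cell cycle genes showed no called change. The list counts of unadjusted p below 0.05 stand beside 1766 of 13296 over all genes. Of 29 genes of G2 and mitosis 0 were called by limma, and 3 had an unadjusted p below 0.05, with a median of −0.23. For 29 genes of replication and G1/S the counts were 0 and 2, with a median of −0.03, and for 17 D cyclins and CDK inhibitors 0 and 4, with a median of −0.16. Of 20 p53 pathway genes 0 were called by limma, and 4 had an unadjusted p below 0.05, and of 30 heat shock and endoplasmic reticulum stress genes 0, where 7 had an unadjusted p below 0.05. Of 27 BCL2 family and death genes 1 rose, the inflammatory caspase Casp4 (at least 1.13, all controls dim), and Casp1 stood at 2.32 without passing (adjusted p = 0.0569). Of 21 NF-kappaB genes 1 rose, the nuclear cofactor Bcl3 (1.83). Of 29 genes of AP-1, Egr and Nr4a factors and their feedback phosphatases 3 fell and 0 rose: the phosphatases Dusp2 (10.46, 10.19 and 10.41 against 9.19, 9.14 and 9.15) and Dusp5 (−1.27) and the nuclear receptor Nr4a2 (−0.94). Of 35 chromatin modifiers 1 fell, the DNA dioxygenase Tet2 (−1.38). The share called was 3.7% in the BCL2 list, 4.76% in the NF-kappaB list, 10.3% in the AP-1 list and 2.86% among chromatin modifiers, beside 3.53% over all genes. The calls of Casp4 (1.16 to 1.48), Dusp2 (−1.27 to −1.14), Dusp5 (−1.44 to −1.13), Nr4a2 (−1.12 to −0.82) and Tet2 (−1.68 to −1.08) were each lost without non-malignant 2, without non-malignant 3 and without some single controls.

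**Figure D4:**
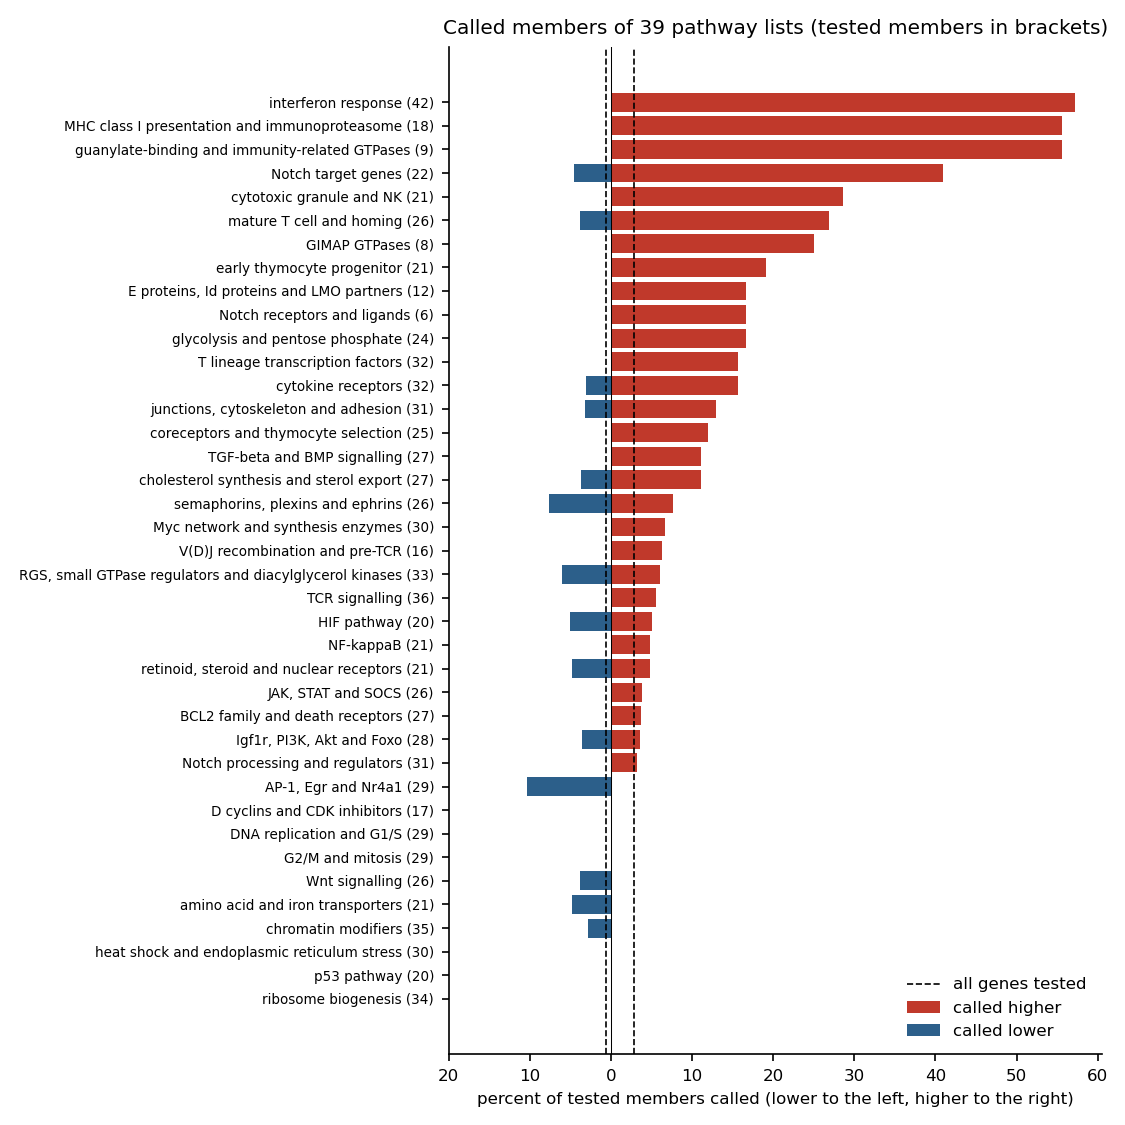
Percent of the tested members of 39 pathway lists called higher (right) or lower (left), with the tested number in brackets and dashed lines at the percentages over all genes tested, 2.87 and 0.654. The interferon, MHC class I, GTPase and Notch target lists lie farthest to the right; 6 lists, the cell cycle lists among them, have no called member.

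Array 1 carried most of the called differences at a smaller size. Of the 382 rises 276 were at least 2-fold above the mean of the controls on array 1, 310 on array 2 and 301 on array 3. Of the 87 falls 56, 73 and 69 were at least 2-fold below it. Array 1 lay below both other non-malignant arrays in 257 of the rises and above both in 79. In the falls it lay above both, nearer to the controls, in 60 and below both in 15. As array 1 entered the selection of these genes together with arrays 2 and 3, these counts are a description.

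When array 1 stood alone for the non-malignant group, with its spread taken from the controls and tumors, 28 genes were called (0.213%), 27 higher and 1 lower, and all 28 were among the 469. Dsp, Tm4sf5, Epas1, Heyl, Hey1, Dtx1, Nln, Mycn, Il2ra, Wdr25, Ifih1 and Irf4 were among the 27. Without array 1, 332 of the 469 were still called. A group of 197 genes, 173 of them higher, was called with all arrays, with arrays 2 and 3 averaged and in each fit that left out 1 of the 9 arrays. The count of called genes was 287, 304 and 280 without control 1, 2 or 3, 203 and 218 without non-malignant 2 or 3, and 709 without tumor 1. Without control 2, counts of rises and falls that moved by over 1.5 times beside those given above were 1 and 1 in the cholesterol list, 1 and 1 among the GTPase regulators, 0 and 1 in the AP-1 list and 0 and 0 in the Wnt, Igf1r, BCL2 and transporter lists. There were 1 and 0 in the TGF-beta, T cell receptor, Myc and E protein lists and 2 and 0 among the early progenitor genes and the Notch regulators. Cytokine receptors had 4 and 2, nuclear receptors 1 and 2 and the early progenitor markers 1 and 0. Restricting the fit to controls and non-malignant samples gave 1119 genes, 468 of the 469 among them.

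**Figure D5:**
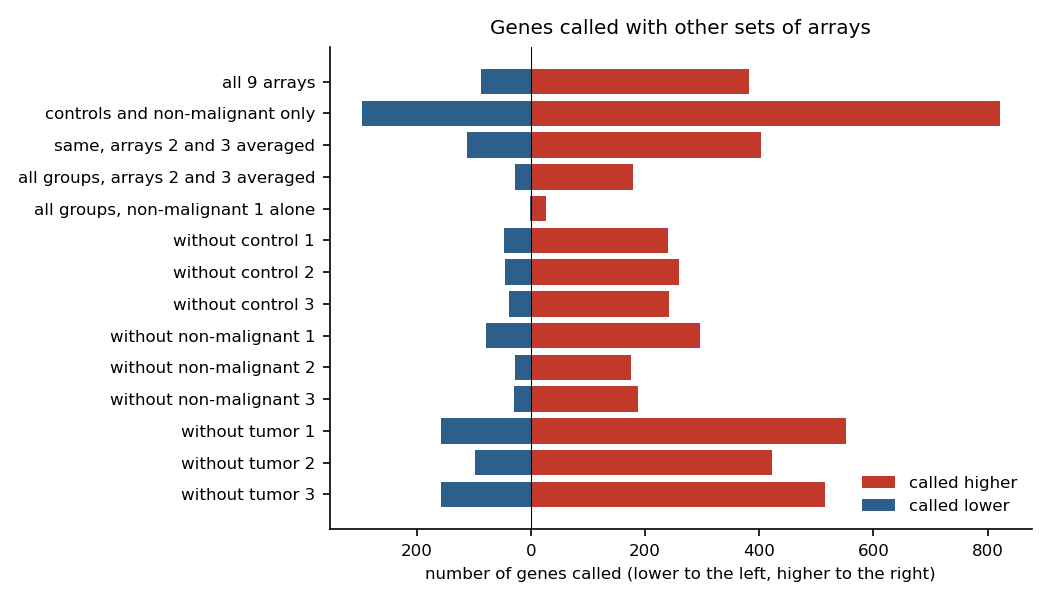
Number of genes called higher (right) and lower (left) in fits of other sets of arrays. The counts run from 27 higher and 1 lower with non-malignant 1 alone to 822 and 297 with controls and non-malignant samples only, against 382 and 87 with all 9 arrays; leaving out non-malignant 2 or 3 lowers the counts more than leaving out non-malignant 1.

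Array 1 also differed from arrays 2 and 3 in genes that were not called. It was at least 2-fold above their mean in 157 of the genes tested and at least 2-fold below in 118, and 31 of the called genes had such a gap. Galnt2, which starts O-glycans, read 12.69 on array 1 against 10.58 and 10.71, with 12.19, 10.03 and 10.9 on the controls. The immunoglobulin gene Igha read 8.5 against 6.49 and 6.52, with 7.27, 6.9 and 7.18 on the controls. The activation marker Cd69 read 7.89 against 9.97 and 9.98, with 7.96, 9.12 and 8.59 on the controls, and the heat shock gene Hspa1a 7.83 against 9.89 and 9.76, with 8, 5.01 and 8.51. In 102 of the 157 genes higher on array 1, control 1 was also the highest control, against 3610 of all 13296 genes. In 47 of the 118 lower genes control 1 was the lowest control, against 5152 of all.

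By list, the GTPases were lower on array 1 than the mean of arrays 2 and 3 in 9 of 9 members (median −0.66), interferon genes in 31 of 42 (−0.28) and MHC class I genes in 16 of 18 (−0.24). Over all genes array 1 was lower in 5801 of 13296, with a median of 0.04. Notch target genes showed no such shift (lower in 10 of 22, median 0.04). The mature T markers were lower on array 1 in 4 of 4 (−0.93) and the B cell markers in 0 of 7 (0.52).

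Further probe sets read the same RNA at other places. Of the 469 called genes 218 had at least 1 further probe set above the filter, 323 in all. Of these 304 differed in the same direction and 105 were called themselves, 0 of them in the other direction. Over all genes tested 6915 of 10072 further probe sets shared the sign of the chosen one. Heyl rose on both of its other probe sets (3.82 and 2.91), as did Epas1 (3.19), Il2ra (3.68), Nln (5.78), Adam19 (4) and Cd44 (3.33 and 3.06) on theirs. Others did not share the change. A further probe set each of the called genes Cd82 (0.04), Bmpr2 (−0.01), Slamf6 (−0.10), Zap70 (−0.09), Tkt (−0.02), Snw1 (−0.30), Tox2 (0.19), Ddx58 (0.12) and Dhx58 (0.18) and of the falling Gabbr1 (0.04), Prickle1 (−0.21) and Slc38a2 (−0.28) was not called, as for Mycn, Dtx1, Prf1, Runx3 and Igf1r above. Another further probe set was called for Slamf6 (2.45), Snw1 (1.13) and Ddx58 (0.84). Also not called were further probe sets of Pkp4 (0.55), Parp14 (0.25) and the falling Nr4a2 (−0.67, −0.12 and −0.0021).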

How the data were processed

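Affymetrix arrays of 45101 probe sets were read from the deposited table of log2 values. Their background correction, normalization and summarization are not given in the sources used here, and the base was read from the values (2.68 to 14.57). Probe sets were 64 control spots, 34945 with 1 symbol (platform annotation, updated through RefSeq), 932 with several and 9160 with none. Each gene took its probe set with the highest mean over 9 arrays. All 9 arrays entered a linear model with a mean for each of the 3 groups (limma 3.58.1, R 4.3.3, variance trend, two-sided, residual degrees of freedom 6, prior 3.6); tables were made with pandas 2.3.3 in Python 3.11.15. On simulated data of this comparison, 52.2% of 2-fold and 92.8% of 4-fold changes among 200 genes were recovered, with 5 false calls per draw. The simulated arrays were independent of each other, with the spread of the real ones. Non-malignant arrays 2 and 3 may not be independent, so these figures may not hold for the real comparison. With 3 arrays a group, their number limits the precision, and an exact permutation test cannot give a p under 0.1.

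The text names the 25 largest called rises and falls with groups apart (without clone or predicted names), called members of 39 pathway lists, all Notch list members and the members of 12 marker lists, 1122 of 1204 entries matched. Members and lists were chosen with earlier results of these data known. Alternatives were other scalings, filters, probe set rules, variance models, array sets, the replicate block and leaving out each array, with the probe set chosen again. The fit of only the 2 groups with non-malignant arrays 2 and 3 averaged was added after seeing the data.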

Additional observations from a re-analysis of the deposited data

Results flagged for a closer look

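Probe sets that carry no gene symbol, which enter no comparison above, also differed: of 4121 above the filter 55 were called by limma (1.33%), 24 higher and 31 lower in the non-malignant samples. The largest rise among them was 4.34 on the log2 scale (4.98, 4.89 and 4.67 on the controls and 8.43, 9.62 and 9.5 on the non-malignant arrays). The largest fall was −3.53 (9.48, 8.84 and 9.61 against 5.98, 5.68 and 5.68). The genes behind these probe sets are not named here. Groups of 3 are too small for the test of single outlying arrays.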

How the results depend on the processing

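Of the counts of called genes (469, 382 higher, 87 lower), those with non-malignant arrays 2 and 3 averaged (206, 178 and 28), non-malignant 1 alone (28, 27 and 1), the 2 groups alone (1119, 822 and 297), array weights (2421, 1527 and 894) and an adjusted p under 0.01 (233, 201 and 32) moved by more than 1.5 times. With 1 array left out they ran from 203 to 709, 175 to 552 and 28 to 158. The added fit of 2 groups with arrays 2 and 3 averaged gave 515. Quantile and median scaling, no filter, a filter at the 60th percentile, the mean of probe sets and other variance trends stayed within 1.5 times (438 to 491). The replicate number as a block gave 399 genes, 326 higher and 73 lower; the labels do not pair samples by it, and deviations from the group means correlated between same-numbered control and non-malignant arrays at 0.222, 0.136 and −0.0101, 1 of the 3 best with its own number. A sign turned for Runx3 (−0.0017, from another probe set) and Cd4 (0.18) with non-malignant 1 alone, and for Cd8a without non-malignant 1 (0.012, −0.57 at the lowest with another array left out); the cause was not tested for the last 2. On the gene's strand only, the RBPJ motif stood in 3.29% of promoters of rising genes and 2.98% of all, and the ISRE core in 4.61% and 1.47%; the palindromic E-box CACGTG (9.54% of rising, 15.3% of falling, 9.58% of all) cannot change. The 3′ to 5′ signal ratio of 4 control genes (log2) overlapped between groups except for the transferrin receptor (2.27 to 2.5 on controls, 1.95 to 2.18 on non-malignant arrays). For Gapdh it was 0.75 on non-malignant 1, against −0.11 and −0.01 on non-malignant 2 and 3 and −0.09 to 0.44 on the controls. Actin (0.38, against 0.23 and 0.25) and pyruvate carboxylase (−0.08, against −0.45 and −0.19) were also highest on non-malignant 1 within the group. The transferrin receptor was lowest there (1.95, against 2.04 and 2.18). The part of these differences was not tested. Values under the 40th percentile have no order.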
